A study of Drosophila melanogaster with 6 samples.

Results

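The nuclear-encoded subunits of respiratory complexes II to V were compared between heads of wild type flies and of flies that express a polyglutamine protein under a clock gene promoter. Members were all probe sets with a single annotated gene whose symbol starts with UQCR-, COX, ATPsyn or Sdh followed by a letter A to D, or is Cyt-c1, RFeSP, Cyt-c-p or blw. The name rule used no measured value and took 39 of 13966 probe sets, which stand for 38 of 10843 genes with a probe set of their own: 6 probe sets of complex II, 6 of complex III, 11 of complex IV and 16 of complex V. No single-gene probe set carried the names SdhA, UQCR-C1, UQCR-C2 or Cyt-c-p, so these genes were not analysed here. A further 3 probe sets that match a member and another gene, and 1 with an Sdh name that lacks a letter A to D, were left out.

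Oxidative phosphorylation takes place in the inner mitochondrial membrane. Complex II passes electrons from succinate to ubiquinone, complex III passes them on to cytochrome c, and complex IV, cytochrome c oxidase, passes them to oxygen. Complex V, the ATP synthase, uses the proton gradient to make ATP. Most subunits are encoded in the nucleus, while the catalytic core of complex IV is encoded in the mitochondrial genome. Photoreceptors and neurons of the fly head are known for a high demand for ATP.

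The study measured head RNA of Drosophila melanogaster on 6 Affymetrix DrosGenome1 chips. Of these, 3 were from wild type flies and 3 from flies in which a Tim-gal4 driver switches on a UAS-MJD78Q transgene, here called tim-MJD. Expression from this driver follows the clock gene timeless, whose promoter is known to be active in clock neurons, photoreceptors and glia, so a change in those cells is measured here in RNA of whole heads. MJD, the protein of Machado-Joseph disease, carries 78 glutamines per the labels of tim-MJD 1 and 2, while the label of tim-MJD 3 gives no length. The strain of wild type 1 and 3 is CS, and none is named for wild type 2. Flies of both groups were 2 to 4 days old and were collected at Zeitgeber time 16 after 3 days in light-dark cycles. The labels do not give their sex. Neither group carries only the driver or only the transgene, so their effects and that of the strain background cannot be told apart.

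Several facts of the whole series touch the results below. Each group was scanned on a day of its own, so the group difference and the day of scanning cannot be told apart. The 3' control probe set of eIF-4a exceeded its 5' partner by 9.39 log2 units on wild type 2, against 2.57 to 3.71 elsewhere. The middle probe set of 18S ribosomal RNA read 12.71 on wild type 1, 12.01 on wild type 2 and 16.70 to 17.43 on the remaining 4 arrays. Markers of the head were present in both groups: Arr2, an arrestin of photoreceptors, read 18.03 to 18.71 and elav, a neuronal RNA binding protein, 6.33 to 6.81, above the negative controls. Summed intensities of the 12 fat body markers ranged from 2548000 to 3810000 in wild type and from 46260 to 2269000 in tim-MJD, with Fbp1 and Fbp2 at control level on all arrays. The low end is tim-MJD 2, where the yolk protein gene Yp1 read 14.72 against 20.10 on tim-MJD 1 and 3, and Yp2 10.02 against 18.36 and 18.71. Yp3 read 13.15 there against 19.39. These yolk protein genes had the highest means of the list over all arrays, so the sums mostly follow them. The sex of the flies is not labelled, and its part in these sums was not tested. Of the other fat body markers Obp99b differed by -5.70 ± 0.91 (adjusted p = 0.0478 in limma). Lsp2 (-3.14 ± 1.11), Lsd-1 (-2.68 ± 0.92), apolpp (-1.83 ± 0.61) and FASN1 (-0.84 ± 0.38) also read lower, none of them called. Cat differed by 0.02 ± 0.13 and Apoltp by 0.23 ± 0.28. Without tim-MJD 2 the median difference of the respiratory members was -0.50. Summed intensities of the 7 olfactory markers ranged from 281600 to 306600 in wild type and from 79740 to 162800 in tim-MJD. The brightest was Obp19d (-1.15 ± 0.29), and Orco differed by -0.03 ± 0.12. At an unadjusted p under 0.05 in limma 6 of the 7 were lower, where 7.95% of all probe sets were, and Obp19a alone was called. The 5 glial markers summed to 8466 to 19550 and 3896 to 6433. The brightest was Gs2 (-1.42 ± 0.39), followed by alrm (-0.90 ± 0.17). The markers nrv2 (-0.23 ± 0.31), repo (-0.13 ± 0.11) and moody (0.50 ± 0.26) differed by less, and no glial marker was called. None of the olfactory or glial markers was at control level on all arrays. Sums of the 7 photoreceptor markers (437000 to 670000 against 475200 to 534400) and of the 10 muscle markers (15970 to 19620 against 14040 to 19760) overlapped between the groups, with none at control level on all arrays. Some single markers did not overlap. The muscle gene TpnC41C (-0.91 ± 0.15) and the photoreceptor gene inaD (-0.55 ± 0.16) read lower on every tim-MJD array. The muscle genes Mlc1 (0.46 ± 0.19) and up (0.55 ± 0.24) read higher on each. No marker of these 2 lists was called. The 5 neuronal markers summed to 754.5 to 792.4 in wild type and 1102 to 1595 in tim-MJD, with para at control level on all arrays and not tested. The higher sum was that of nSyb (1.63 ± 0.29), while Csp differed by -0.53 ± 0.21, elav by 0.04 ± 0.14 and brp by 0.07 ± 0.08, none of them called. The part of RNA quality, of the sex of the flies and of fat body, olfactory and glial RNA in the results on respiratory genes was not tested. In RNA of whole heads, fewer cells of a type and less RNA per cell cannot be told apart.

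Measured transcripts read lower in tim-MJD than in wild type heads for 26 of the 31 tested members, where 51% of all probe sets tested had a difference below 0. Of the 26 subunit probe sets above the negative controls on all arrays, a set chosen after seeing the data, 24 read lower. Among all 5075 tested probe sets above these controls on all arrays 2525 did. COX8 and COX5B of complex IV, UQCR-Q and UQCR-14 of complex III, and ATPsynF and ATPsynD of complex V fell, with differences from -1.88 to -0.81 on the log2 scale. Levels are given as log2 of intensity plus 16 after quantile normalization, and each difference as tim-MJD minus wild type from a limma fit over all probe sets, with its standard error. A member was called where its p, adjusted over all 8379 probe sets tested, was at or under 0.05. Of the 39 members 31 passed the filter on low values, and of these 6 were called lower, 0 higher and 25 did not pass. Among all probe sets tested 0.943% were called lower and 1.54% higher. At an unadjusted p under 0.05, 18 members were lower and 0 higher, against 7.95% of all probe sets that were lower. Every tim-MJD array read below every wild type array for 17 of the 31, where this held for 11.9% of all probe sets, and above every wild type array for 0 of the 31, against 10% of all. The median difference of the 31 was -0.48, and that of all probe sets tested was -0.0026.

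The scale of the deposited values is unsettled: were they made by raising e, and not the base of the logarithm, to log2 summaries, the differences given here for bright probe sets would shrink by a factor of 0.693 and keep their sign. The labels do not say whether the replicates came from separate collections of flies, so p-values measure the spread between these samples, which may be technical.

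**Figure D1:**
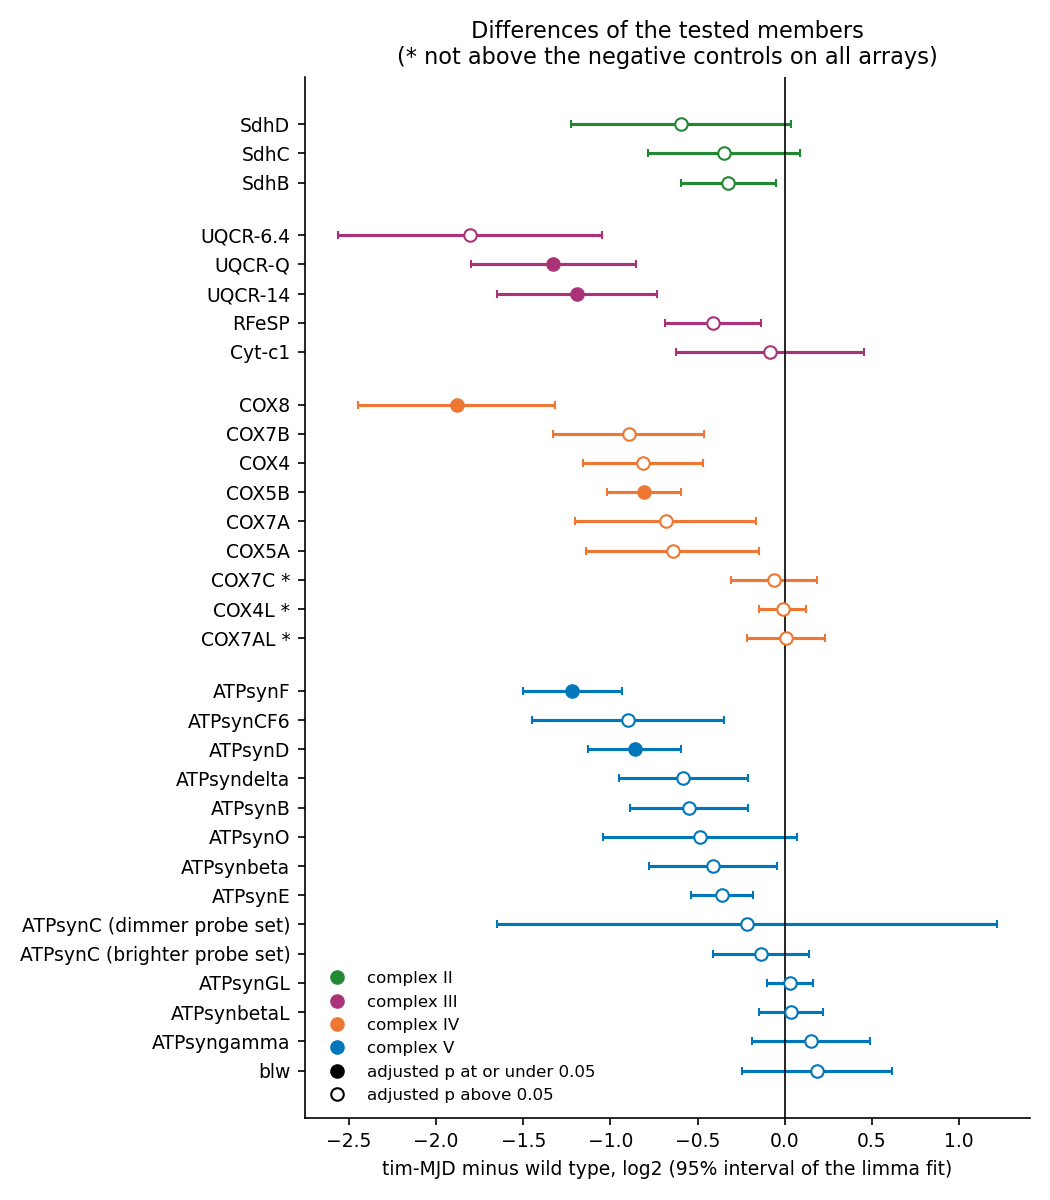
Difference of each of the 31 tested members, tim-MJD minus wild type in log2 units, by complex; points are limma estimates, bars their 95% intervals, and filled points have an adjusted p at or under 0.05. The 6 filled points lie between -1.88 and -0.81, and no interval lies wholly above 0.

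Complex II holds an iron-sulphur subunit, SdhB, and the membrane anchors SdhC and SdhD beside the flavoprotein SdhA. SdhB, the tested probe set of this complex with the highest mean, read 11.73, 11.90 and 11.66 on wild type 1 to 3 and 11.57, 11.47 and 11.27 on tim-MJD 1 to 3. The groups did not overlap, and the difference of -0.32 ± 0.11 did not pass (adjusted p = 0.232 in limma). SdhD differed by -0.59 ± 0.25 and SdhC by -0.35 ± 0.17, and for both the groups overlapped. None of the 3 tested members of complex II was called in limma, and SdhB was the 1 with an unadjusted p under 0.05.

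Complex III is a proton pump with redox centres on cytochrome b, which is encoded in the mitochondrial genome, on Cyt-c1, the haem protein that hands electrons to cytochrome c, and on RFeSP, the Rieske iron-sulphur protein. UQCR-Q, UQCR-14 and UQCR-6.4 are small accessory subunits without a redox centre. UQCR-Q read 14.51, 15.10 and 14.58 on the wild type arrays and 13.34, 13.60 and 13.27 on the tim-MJD arrays. Every tim-MJD array lay below every wild type array, and wild type 2 read highest. UQCR-Q fell by 1.33 ± 0.19 (adjusted p = 0.0340 in limma), a call that was lost under 12 of 20 alternatives. UQCR-14 read 10.80, 11.24 and 10.82 in wild type and 10.06, 9.62 and 9.61 in tim-MJD, and again the groups did not overlap. It fell by 1.19 ± 0.18 (adjusted p = 0.0423 in limma).

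UQCR-6.4 had a larger difference, -1.81 ± 0.30, but did not pass (adjusted p = 0.0536 in limma), with a wild type spread of 0.57 (SD, n = 3) against 0.18 in tim-MJD. It passed under 8 of 20 alternatives, with an adjusted p between 0.0197 and 0.284 in limma over all 20, while UQCR-14 lost its call under 15 of 20, with an adjusted p between 0.0249 and 0.261. RFeSP differed by -0.41 ± 0.11 (adjusted p = 0.143 in limma), with groups that did not overlap. Cyt-c1 differed by -0.08 ± 0.21, with a 95% interval from -0.62 to 0.46 and overlapping groups. The sign of the Cyt-c1 difference turned with array weights (0.01), with the fluidics module as a block (0.16) and without wild type 1 (0.11). The mean over the 3 accessory subunits stood at -1.38, -1.36 and -1.59 log2 units from the wild type mean on tim-MJD 1 to 3, and that over Cyt-c1 and RFeSP at -0.25, -0.16 and -0.33. These means describe the members, and their difference was not tested.

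**Figure D2:**
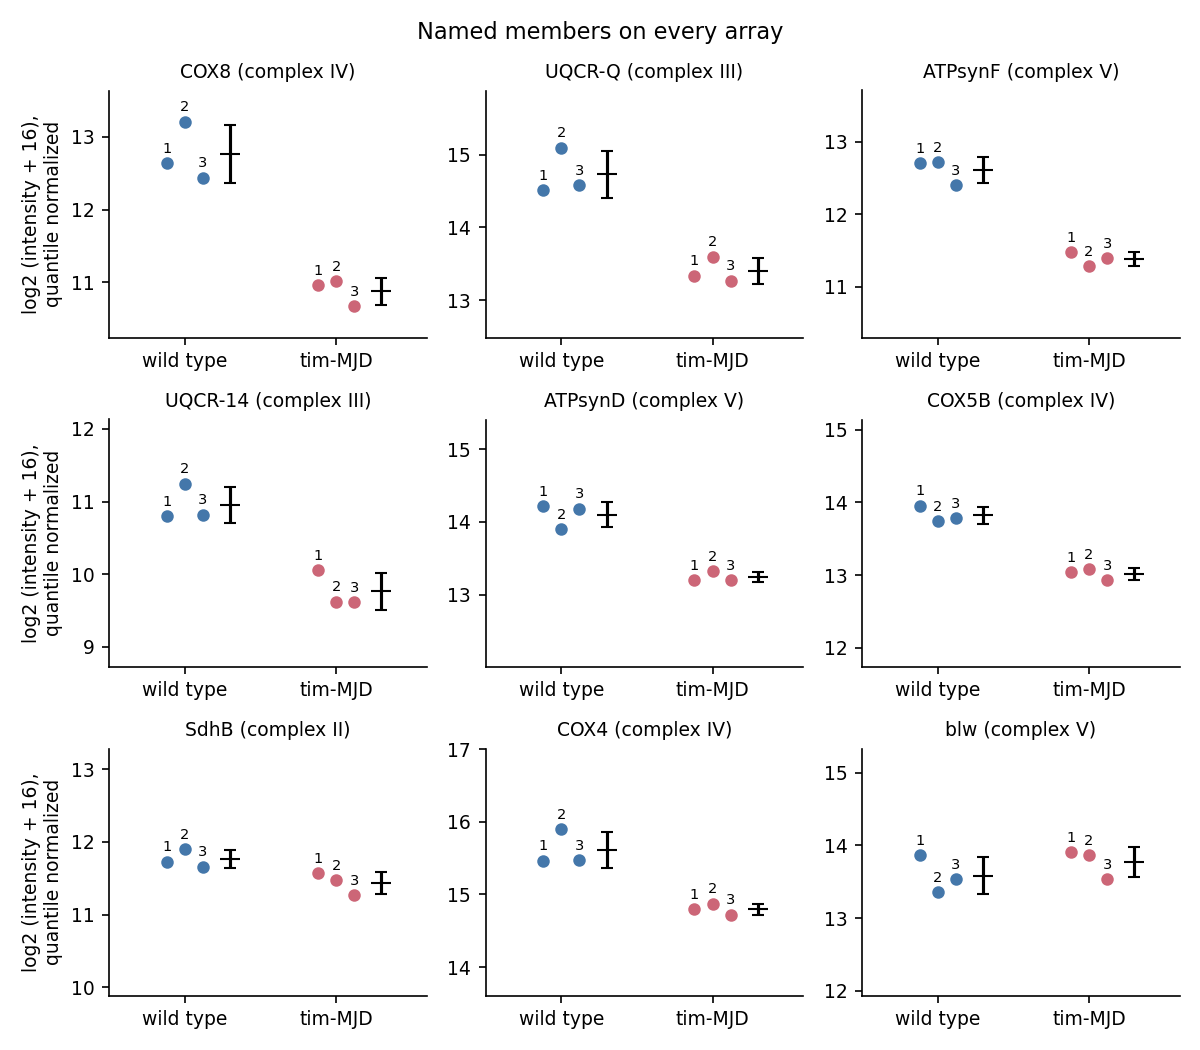
Level on each array, as log2 of intensity plus 16 after quantile normalization, for the 6 called members and for SdhB, COX4 and blw, the tested probe sets of complexes II, IV and V with the highest mean over all arrays; numbers are replicates, and bars show the mean and SD of 3 arrays. The panels span the same range in log2 units, the groups overlap for blw alone, and the widest gap among the 9 is that of COX8.

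In complex IV, COX8, a small subunit of cytochrome c oxidase, read 12.64, 13.21 and 12.44 on the wild type arrays and 10.96, 11.01 and 10.67 on the tim-MJD arrays. The lowest wild type array lay above the highest tim-MJD array, and wild type 2 was the highest of its group. COX8 fell by 1.88 ± 0.22 (adjusted p = 0.0210 in limma), which is close to the difference of UQCR-6.4. COX5B, a subunit that binds zinc in mammals, read 13.95, 13.74 and 13.78 in wild type and 13.04, 13.08 and 12.93 in tim-MJD. Its arrays spread little within a group, and it fell by 0.81 ± 0.08 (adjusted p = 0.0143 in limma). COX4, the tested probe set of this complex with the highest mean and known in mammals as a subunit that regulates the enzyme by ATP, read 15.46, 15.90 and 15.47 in wild type and 14.80, 14.87 and 14.72 in tim-MJD. It differed by about as much as COX5B, -0.81 ± 0.14, without overlap between the groups, and did not pass (adjusted p = 0.0541 in limma).

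The other subunits of complex IV above the negative controls were COX7B (-0.89 ± 0.17), COX7A (-0.68 ± 0.21) and COX5A (-0.64 ± 0.20), none of which passed. All 6 subunits above the controls had every tim-MJD array below every wild type array and an unadjusted p under 0.05, and 2 of the 6 were called. COX7C was not above the negative controls on any array, so a difference in it could not be measured. The median difference of the 9 tested members of complex IV was -0.68, and that of the 6 subunits above the controls was -0.81.

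Complex V has a soluble F1 part that makes ATP, a ring of c subunits that carries protons, a peripheral stalk that holds the F1 part in place, and small membrane subunits known to join ATP synthases into dimers. ATPsynF, one of those membrane subunits, read 12.70, 12.72 and 12.40 in wild type and 11.48, 11.29 and 11.40 in tim-MJD. The groups lay far apart in relation to their spread, and ATPsynF fell by 1.22 ± 0.11 (adjusted p = 0.0104 in limma), the smallest adjusted p of the 31 members. ATPsynD, a subunit of the peripheral stalk, read 14.22, 13.90 and 14.19 in wild type and 13.20, 13.32 and 13.20 in tim-MJD. It fell by 0.86 ± 0.11 (adjusted p = 0.0233 in limma), without overlap between the groups.

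The other 3 stalk subunits, ATPsynCF6 (-0.90 ± 0.22), ATPsynB (-0.55 ± 0.13) and ATPsynO (-0.48 ± 0.22), did not pass, nor did the membrane subunit ATPsynE (-0.36 ± 0.07). Groups overlapped for ATPsynO alone among these 4. In the F1 part the signs were mixed, and none of its 4 tested subunits was called. ATPsyndelta of the central stalk differed by -0.58 ± 0.15 and the catalytic subunit ATPsynbeta by -0.41 ± 0.15, and neither passed. The ATPsynbeta probe set was dim, with means of 7.31 in wild type and 6.89 in tim-MJD, though above the negative controls on all arrays. The gamma subunit of the central stalk, ATPsyngamma, differed by 0.15 ± 0.13, with a 95% interval from -0.19 to 0.49, and its sign turned with the values as deposited (-0.13), median centring (-0.15) and the 3' to 5' covariate (-0.02).

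The gene blw encodes the alpha subunit, which forms the F1 head together with the beta subunit, and is shown here because its probe set had the highest mean over all arrays in complex V. In wild type alone ATPsynD and the brighter ATPsynC probe set read higher. It read 13.86, 13.36 and 13.53 on the wild type arrays and 13.91, 13.86 and 13.53 on the tim-MJD arrays. The groups overlapped, and the difference was 0.18 ± 0.17 with a 95% interval from -0.25 to 0.61 (adjusted p = 0.700 in limma). A fall as large as that of ATPsynF lies outside this interval. ATPsynC, the c subunit, had 2 probe sets. The brighter one differed by -0.13 ± 0.11, with a 95% interval from -0.41 to 0.14, and by 0.01 with cyclic loess. The dimmer one read 9.59 on wild type 3 and 7.50 to 7.79 on the other wild type arrays, so its difference of -0.22 ± 0.57 turned to 0.43 without wild type 3.

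**Figure D3:**
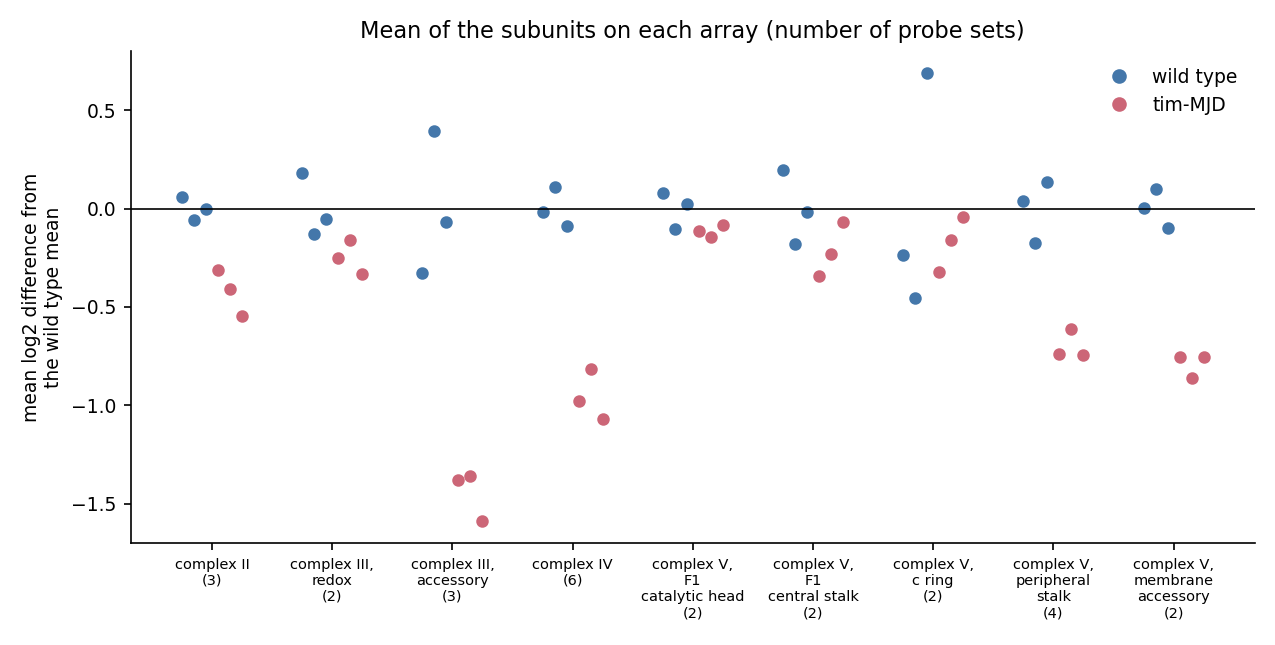
Mean over the subunits above the negative controls on each array, as the difference in log2 units from the mean of the 3 wild type arrays, by complex and by role; points are arrays, and the number of probe sets averaged stands in parentheses. Every tim-MJD array lies below every wild type array for complex II, both parts of complex III, complex IV, and the peripheral stalk and membrane subunits of complex V, while arrays of the groups overlap for the F1 part and the c ring.

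Across the complexes, the median difference of the tested members was -0.35 for complex II (3 probe sets), -1.19 for complex III (5), -0.68 for complex IV (9) and -0.39 for complex V (14). Called lower were 0 of 3, 2 of 5, 2 of 9 and 2 of 14. The per-array means over the 26 subunit probe sets above the controls stood at -0.67, -0.60 and -0.71 log2 units from the wild type mean on tim-MJD 1 to 3, and at -0.01, -0.02 and 0.03 on wild type 1 to 3. By complex, the mean on the tim-MJD arrays was -0.42 ± 0.12 for complex II, -0.96 ± 0.11 for complex III, -0.95 ± 0.13 for complex IV and -0.45 ± 0.05 for complex V (SD, n = 3). The SD of the wild type arrays was 0.06, 0.16, 0.10 and 0.16 in the same order. On wild type 2 complex III stood at 0.19 and complex V at -0.17. The difference between complexes was not tested, since members of a complex are not replicates. Within fluidics modules 1 and 2, each of which washed 1 array of each group, the medians were -0.46 and -0.50 over all 31 members.

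The paralogues named after a subunit with an added L stood apart from the subunits in level. In the fly, many duplicated genes of respiratory subunits are known for expression in the testis. Of the 12 paralogues 9 were not above the negative controls on any array, namely SdhAL, SdhBL, SdhCL, UQCR-14L, COX4L, COX5BL, COX6AL2, ATPsynCF6L and ATPsynepsilonL, and COX7AL was above them on 1 of 3 wild type arrays and 0 of 3 tim-MJD arrays. ATPsynGL and ATPsynbetaL were above the controls on all arrays, at 5.72 ± 0.03 and 6.41 ± 0.08 in wild type and 5.75 ± 0.03 and 6.44 ± 0.08 in tim-MJD (SD, n = 3). Their differences, 0.03 ± 0.05 and 0.04 ± 0.07, were within the spread between replicates. The filter left out 8 members, each of them a paralogue. COX7C, with a mean of 5.34 over all arrays, was the dimmest member kept, and COX6AL2, with 5.16, the brightest left out. In the Release 6 gene table COX5B and COX5BL have 1 protein-coding gene between them, and COX7A and COX7AL have 2. In both pairs the subunit was above the controls on all arrays, while COX5BL was above them on none.

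Calls of single members depended on single arrays and on the setting. Over the 20 alternatives, arrays left out included, UQCR-14 lost its call under 15, UQCR-Q under 12 and ATPsynD under 11. COX8 lost it under 8, and ATPsynF and COX5B under 6 each. ATPsynF lost its call without wild type 1 (adjusted p = 0.0528 in limma) and COX5B without tim-MJD 3 (0.0530), and each kept it with any of the other 5 arrays left out. Leaving out any of 4 arrays ended the call of COX8 (at most 0.0747, without wild type 1). For UQCR-Q, UQCR-14 and ATPsynD any of 5 arrays did so (at most 0.110, 0.119 and 0.0791, each without tim-MJD 3). Without wild type 1, 2 and 3 in turn, 3, 7 and 3 members were called lower, where 0.382%, 0.561% and 0.847% of all probe sets were. Without tim-MJD 1, 2 and 3 in turn, 3, 2 and 1 members were called lower, where 0.883%, 0.513% and 0.286% of all probe sets were. The median over all members stayed between -0.61 and -0.41 whichever array was left out. With a covariate for the 3' to 5' difference, which is high on wild type 2 alone, 4 members were called lower, against 0.406% of all probe sets. The 18S signal was low on wild type 1 and 2 alone, so it coincides in part with group. With the 18S signal as a covariate 1 member was called, the dimmer ATPsynC probe set and none of the 6, and 15 of all 8379 probe sets (0.179%). With the fluidics module as a block 0 of all 8379 probe sets were called lower, and 14 members were lower at an unadjusted p under 0.05 in limma. The difference of COX8 was -1.46 with the 18S covariate and -1.84 with the module block, that of ATPsynF -0.99 and -1.17, and that of UQCR-14 -0.98 and -1.19.

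**Figure D4:**
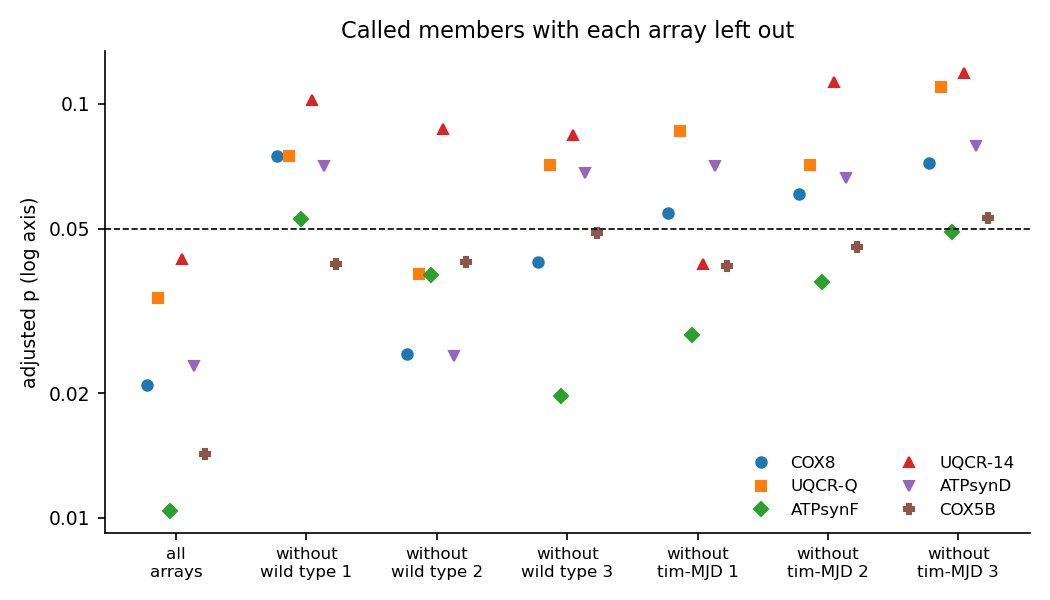
Adjusted p of the limma fit on a log axis for the 6 called members with all arrays and with each array left out; the dashed line marks 0.05. ATPsynF and COX5B each cross the line once, while UQCR-Q, UQCR-14 and ATPsynD lie above it with 5 of 6 arrays left out.

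Other genes of energy metabolism, taken by the brightest probe set of each gene, give the setting of these values. Of 26 tested genes of complex I, the entry point of electrons from NADH, 5 fell and 21 did not pass, with a median of -0.80, where 0.943% of all probe sets were called lower. The 5 calls became 2 when wild type 1, wild type 2 or tim-MJD 1 was left out and 3 when wild type 3 was, and were 0 with the fluidics module as a block, 1 with the replicate block, 1 with the 18S covariate and 2 with the 3' to 5' covariate. Its largest called falls were those of the subunits ND-B14.7 (-1.30 ± 0.10), ND-ASHI (-1.14 ± 0.16) and ND-B14.5A (-1.12 ± 0.06). Respiratory proteins that the name rule does not take include cype, a subunit of complex IV, which fell by 1.31 ± 0.15 (adjusted p = 0.0161 in limma). The epsilon subunit of complex V, sun (-1.48 ± 0.29), and the complex IV subunit levy (-0.72 ± 0.17) did not pass, and both are named because of their values. The count for this list was 1 fallen of 5 tested, which was 0 without wild type 3, tim-MJD 2 or tim-MJD 3 and 2 without wild type 1. It was also 0 with the replicate block, the module block and each of the covariates for 18S and for 3' to 5' signal.

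A list of 23 names, synonyms included, covered the tricarboxylic acid cycle, which feeds complexes I and II, and pyruvate dehydrogenase. Of its genes 13 had a single-gene probe set, and kdn, Fum1 and Mdh2 were not among them. The dimmest, mAcon2, was above the negative controls on no array. None of the 13 tested genes was called in limma, and at an unadjusted p under 0.05 there were 0 lower and 1 higher. Their median was -0.03, and for all 13 the groups overlapped. None of 8 glycolytic genes was called in limma (1 lower and 0 higher at an unadjusted p under 0.05), with a median of 0.09, but neither the sign nor the size of that median held. It was -0.12 without normalization, -0.14 after median centring, 0.30 with the module block and 0.42 with the 18S covariate, and ranged from -0.11 (without wild type 3) to 0.24 (without wild type 1) over arrays left out. A list of 6 tested genes held mitochondrial carriers, membrane proteins and wal, a subunit of electron transfer flavoprotein. Of these 0 were called in limma and 3 were lower at an unadjusted p under 0.05, where 7.95% of all probe sets were, with a median of -0.63. The 3 were porin (-0.64 ± 0.11), colt (-1.75 ± 0.43) and wal (-0.98 ± 0.30). That median was -0.40 without wild type 2 and -0.35 with the 3' to 5' covariate, and 1 gene of the list was called with array weights or with the lowest 60% left out. Tested genes of mitochondrial transcription and replication (4) and regulators of nuclear respiratory genes (3) gave 0 calls in limma and 0 at an unadjusted p under 0.05, with medians of -0.07 and -0.09. All of them except TFAM (-0.06 ± 0.10) and ewg (-0.36 ± 0.28) had group means between 5.33 and 5.70. The highest negative control of an array read 5.52 to 5.78 before normalization, and near that level a difference is not detectable.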

How the data were processed

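The deposited table gives the authors' intensity of each probe set on 6 arrays, of the chip type DrosGenome1 per the file headers. The scale of these values is not stated, and they were treated as linear. For their summary, background correction and scaling, the method is not given in sources used here. Between 56 and 75 probe sets per array exceed 65535. Of 14010 probe sets 44 controls were left out. Genes were named from GEO's platform annotation (12442 probe sets with 1 gene, 327 with several, 1197 with none listed); 12393 of the single-gene names matched a current gene table. Values plus 16 were put on a log2 scale and quantile normalized without the controls. Dropping the dimmest 40% by overall mean left 8379 probe sets.

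Groups were compared with limma 3.58.1 in R 4.3.3 (lmFit and eBayes, two-sided, Benjamini-Hochberg over all probe sets tested). Negative controls are 23 probe sets for foreign transcripts. A member was above them on an array where it exceeded the highest of them there. Medians and array means over members are descriptions without a test. The members, gene lists and subunit roles were chosen with earlier results of these data known. Named with every array are the called members and the tested member of each complex with the highest mean over all arrays. Precision is limited by having 3 arrays a group.

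Alternatives covered the pseudocount, normalization, filter, variance model, array weights, array blocks and covariates, and leaving out each array. The procedure was tested on simulated data. Figures were drawn with matplotlib 3.10.9.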

Additional observations from a re-analysis of the deposited data

How the results depend on the processing

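Alternatives changed the number of called members more than the medians, which stayed negative in every complex under all of the alternatives run. The 6 calls became 0 with median centring (17 at an unadjusted p under 0.05 in limma) and with the fluidics module as a block, 2 without the filter, where more probe sets were tested, 2 with the replicate block (COX8 and UQCR-Q) and 1 with the 18S covariate (another member); leaving out arrays gave 1 to 7. Under the other alternatives it lay between 4 and 9, and no member was called higher under any. The median of all members ranged from -0.61 to -0.41 over arrays left out. It was -0.61 with the values as deposited, -0.63 with median centring, -0.35 without the filter, -0.57 with the lowest 60% left out, -0.34 with natural logs without a pseudocount, -0.63 with the 3' to 5' covariate, -0.59 with the 18S covariate, -0.58 without paralogues and -0.59 for subunits above the controls, a choice made after seeing the data. For complex II it was -0.56 as deposited, -0.58 with median centring, -0.19 without the filter, -0.17 with the 18S covariate and -0.19 within module 2. For complex III it was -0.80 without the filter and -0.84 with natural logs. For complex IV it was -0.84, -0.86, -0.81, -0.56, -0.47, -0.81 and -0.81 as deposited and with median centring, the lowest 60% left out, the module block, natural logs, no paralogues and subunits above the controls, and -0.81 to -0.60 over arrays left out. For complex V it was -0.55, -0.57, -0.51 and -0.57 as deposited and with median centring, the 3' to 5' covariate and the 18S covariate. The natural log has smaller units by construction; the cause of the other shifts was not tested. Signs turned for ATPsyngamma (-0.13, -0.15, -0.02), the brighter (0.0054) and dimmer (0.43) ATPsynC probe sets and Cyt-c1 (0.0082 with array weights, 0.16 with the module block and -0.30 to 0.11 over arrays left out), under the alternatives named above, none of them called. A term for scan day was not possible, as group and day coincide. Deviations of same-numbered arrays from their group means correlated at 0.29, 0.05 and 0.30, and those of differently numbered arrays at -0.31 to 0.11. Each tim-MJD array correlated best with the wild type array of its number. Wild type 2 correlated best with tim-MJD 1 (0.11). Whether same-numbered arrays are paired was not tested, and the replicate block rests on the number in the labels. Near the negative controls differences are not detectable.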

Other observations

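The subunits varied among themselves on the wild type arrays. Of the 26 subunit probe sets above the negative controls, 11 read highest of the wild type arrays on wild type 2 and 12 read lowest there. In complex III 4 of 5 probe sets were highest on wild type 2, and in complex V 8 of 12 were lowest there. Among the tim-MJD arrays, replicate 2 was highest for all 6 subunits of complex IV and replicate 3 lowest for all 5 of complex III.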
